A study of Mus musculus with 6 samples.

Results

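The SR protein family and its poison exons are described here through 10 genes, the SR protein genes Srsf1, Srsf2, Srsf3, Srsf4, Srsf5, Srsf6, Srsf7 and Srsf11 and the SR-like genes Tra2a and Tra2b, taken by symbol from the 23420 rows of the gene count table. Their poison exons were taken as cassette exons, inner exons that are either spliced in or skipped, with a mean inclusion under 50% in control. The splice junction files gave 28 candidate exons in 9 of the 10 genes, of which 21 had enough reads to be tested. Of these, 18 were under 50% in control and 3 were above it, against 6657 tested exons under 50% in the whole series. The 18 exons lie in 8 genes and share 9 skipping junctions, so exons of the same gene are not independent of each other. Srsf1 and Srsf4 had none among the 18 and are described by their junctions.

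SR proteins are nuclear RNA-binding proteins that carry a domain rich in arginine and serine and help the spliceosome choose exons. Their own transcripts contain poison exons, short stretches that bring a premature stop codon, or an exon junction behind the normal stop codon, into the mRNA when they are spliced in. A transcript with a stop codon well upstream of its last exon junction is a substrate of nonsense-mediated decay, which removes mRNAs while they are being translated. Through this route several SR proteins are known to limit their own level and that of their relatives.

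The libraries hold RNA bound to tagged ribosomes of Purkinje neurons, each from 1 cerebellum of a C57BL/6 mouse aged 4 weeks. The 3 conditional knockout (cKO) libraries had the genotype Pcp2-BacTRAP, Pcp2-Cre and Rbm17 f/-, and the 3 control libraries had Pcp2-BacTrap and Rbm17 f/+. Both groups thus carried the tagged ribosome transgene and a floxed Rbm17 allele, and the controls had no Cre, so Cre and the Rbm17 null allele cannot be told apart in any difference below. Pcp2 sequences drove both the tag and Cre, which places them in Purkinje cells. RBM17 is a splicing factor that acts at 3′ splice sites.

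Gene counts ranged from 140110897 to 160571518 and junction reads from 73457422 to 83976095 per library. Rbm17 itself stood at 25.7, 25.6 and 26.3 CPM (counts scaled to a total of 1e6 per library) in cKO libraries, against 41.2, 42.5 and 41.3 CPM in control libraries. Its log2 fold change was -0.69 ± 0.09 (SE, n = 3 each, edgeR adjusted p = 0.0016), in the direction the labels give. Of 17 Purkinje cell markers, 8 fell, and their summed level was 19316 to 22431 CPM in cKO and 31825 to 42520 CPM in control libraries. Of 16 microglia markers, 9 rose, with sums of 131.8 to 218.4 CPM in cKO and 70.6 to 100.9 CPM in control libraries. Of 10 astrocyte and Bergmann glia markers, 1 rose and 2 fell, with sums of 1400 to 1858 CPM in cKO and 1873 to 2336 CPM in control libraries. None of the 10 granule cell, 10 oligodendrocyte or 8 endothelial markers passed the edgeR test, with 1, 2 and 0 of them at an unadjusted p under 0.05 and 1, 0 and 0 called by DESeq2. No marker of these lists was at 0 counts in any library. In such bulk libraries fewer cells of a type and less RNA per cell cannot be told apart, and the part of these shifts in the results below was not tested.

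The stretches of these exons up to a stop codon are short. Of the 18 exons, 8 occur in GENCODE transcripts annotated for nonsense-mediated decay. No Srsf5 form is annotated with the bounds given here, and none is among the 8. Read in the frame of the coding transcript, 13 of the 18 exons held a stop codon of their own, in Srsf3, Srsf5, Srsf6, Srsf7, Srsf11 and Tra2b, and each of the 13 stops lay more than 50 bp before the last exon junction. Each run below starts at the first base of the exon and ends with the first in-frame stop codon in capitals, read 5′ to 3′ on the gene's strand from GENCODE transcripts of GRCm38, the build called mm10 in the files.
Srsf3 poison exon of 456 bp, chr17:29039454-29039909, plus strand: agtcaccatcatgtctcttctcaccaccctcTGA
Srsf7 poison exon of 460 or 107 bp, chr17:80204622-80205081, minus strand: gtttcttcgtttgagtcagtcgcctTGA
Srsf5 poison exon of 338, 427 or 534 bp, chr12:80948129-80948662, plus strand: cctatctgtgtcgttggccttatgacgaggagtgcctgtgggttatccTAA
Srsf6 poison exon of 165 or 268 bp, chr2:162932815-162933082, plus strand: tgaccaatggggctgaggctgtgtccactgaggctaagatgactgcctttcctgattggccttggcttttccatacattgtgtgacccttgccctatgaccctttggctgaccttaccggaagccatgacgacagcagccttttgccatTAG
Srsf4 first exon of a run of 3 inner exons, chr4:131884276-131884482, plus strand: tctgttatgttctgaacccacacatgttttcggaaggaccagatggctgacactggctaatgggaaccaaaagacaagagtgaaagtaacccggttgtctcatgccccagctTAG
Srsf11 poison exon of 117 bp, chr3:158023243-158023359, minus strand: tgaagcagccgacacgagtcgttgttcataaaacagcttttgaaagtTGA
Srsf11 poison exon of 109 bp, chr3:158024123-158024231, minus strand: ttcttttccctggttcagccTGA
Tra2b poison exon of 276 or 397 bp, chr16:22258865-22259261, minus strand: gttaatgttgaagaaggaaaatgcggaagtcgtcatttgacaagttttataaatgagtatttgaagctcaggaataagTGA
The first base of the stop codon was base 21 of the 109 bp exon and base 48 of the 117 bp exon in Srsf11, base 26 in Srsf7, base 32 in Srsf3, base 49 in Srsf5, base 79 in Tra2b, base 113 in Srsf4 and base 150 in Srsf6.

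Since RBM17 is known to act at 3′ splice sites, the acceptors of these exons are shown as well, with 20 intronic bases, the AG in capitals, and the first 3 bases of the exon.
Tra2b acceptor, chr16:22259259-22259281, minus strand: cctgttctttttctattaAGgtt
Srsf11 acceptor of the 117 bp exon, chr3:158023357-158023379, minus strand: tttttctgtgtgctttatAGtga
Srsf5 acceptor, chr12:80948109-80948131, plus strand: ttaaaccctttatttgccAGcct
Srsf7 acceptor, chr17:80205079-80205101, minus strand: acctggtcaaaacctttcAGgtt
Srsf6 acceptor, chr2:162932795-162932817, plus strand: ttgatgtttcaatttgaaAGtga
Srsf3 acceptor, chr17:29039434-29039456, plus strand: aaaaatgaaccccgttacAGagt
Of the 20 intronic bases, 15 were C or T in Tra2b, 14 in Srsf11, 13 in Srsf5, 11 in Srsf7, 10 in Srsf6 and 8 in Srsf3. The acceptor of the 81 bp exon in Tra2a, not shown, had 16, and that of the 639 and 630 bp forms in Srsf11 had 12. These counts describe the letters only.

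At the level of whole genes, no member rose or fell. None of the 10 passed the edgeR quasi-likelihood test at an adjusted p under 0.05, where 7.87% of the 16067 genes tested did, 4.03% higher and 3.85% lower in cKO. At an unadjusted p under 0.05 there was 1 member, Srsf6, where 22.1% of all genes were, and DESeq2 and limma-voom called none of the 10. The median log2 fold change was 0.06 over the 10 members and 0.006 over all genes. Their summed level was 1091, 1069 and 1066 CPM in cKO libraries and 1050, 1012 and 1067 CPM in control libraries, which overlap. The counts cannot separate genes whose exons overlap, since the library protocol does not mark strand: Srsf1 overlaps Gm11508, Srsf2 overlaps Mettl23 and Mfsd11, and Srsf4 overlaps Gm12992.

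Srsf1 encodes the founding SR protein, which activates exons through purine-rich enhancers. It had 99.2, 91.5 and 96.0 CPM in cKO and 96.7, 85.5 and 93.0 CPM in control libraries, with a log2 fold change of 0.06 ± 0.09 (SE). Srsf2, a splicing activator that also acts in transcription, had 187.9, 179.1 and 178.9 CPM in cKO and 177.6, 172.7 and 173.7 CPM in control libraries. The Srsf2 groups did not overlap, but the log2 fold change was only 0.06 ± 0.08 (SE; 95% confidence interval -0.12 to 0.24, edgeR adjusted p = 0.73).

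Srsf3 and Srsf7 encode the small SR proteins that also serve as adaptors for mRNA export. Srsf3 had 202.0, 200.1 and 198.3 CPM in cKO and 188.4, 206.5 and 232.6 CPM in control libraries, so the cKO libraries lay within the control range. Srsf7 had 48.3, 47.9 and 49.1 CPM in cKO and 52.5, 45.9 and 52.8 CPM in control libraries, also within the control range. The log2 fold change was -0.06 for each, with confidence intervals of -0.27 to 0.15 and -0.26 to 0.15.

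Srsf4, Srsf5 and Srsf6 encode SR proteins with a second, divergent RNA recognition motif. Srsf6 fell short of a call and had the most negative value of the 10. It had 44.3, 38.6 and 35.0 CPM in cKO and 55.0, 51.1 and 42.4 CPM in control libraries, with 1 cKO library above the lowest control library. Its log2 fold change was -0.33 ± 0.12 (SE; 95% confidence interval -0.61 to -0.06, edgeR adjusted p = 0.145). Srsf4 had 66.6, 68.1 and 69.1 CPM in cKO and 53.2, 59.3 and 69.5 CPM in control libraries. Srsf5, the most abundant member per length, had 251.2, 275.6 and 259.8 CPM in cKO and 256.2, 234.5 and 220.6 CPM in control libraries. Both overlapped between groups, with log2 fold changes of 0.16 ± 0.11 and 0.15 ± 0.09 (SE).

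Srsf11 encodes an SR-related protein that contacts U2AF, the factor that binds 3′ splice sites, and Tra2a and Tra2b encode partners of SR proteins on exonic enhancers. Srsf11 had 84.9, 75.6 and 77.5 CPM in cKO and 73.9, 62.7 and 74.3 CPM in control libraries, groups that did not overlap. Its log2 fold change of 0.18 ± 0.10 (SE; 95% confidence interval -0.05 to 0.40) did not pass the test (edgeR adjusted p = 0.35). Tra2a had 41.0, 32.9 and 38.2 CPM in cKO and 35.8, 31.3 and 36.5 CPM in control libraries. Tra2b had 65.7, 59.4 and 64.1 CPM in cKO and 61.0, 62.5 and 71.2 CPM in control libraries. In all, 2 of the 10 members had groups that did not overlap, where 28.4% of all genes tested did.

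Per kilobase of the longest coding transcript, Srsf5 led with 167.2 ± 7.87 CPM per kb in cKO and 151.2 ± 11.4 in control libraries (SD, n = 3 each). Srsf2 followed with 95.8 ± 2.7 in cKO and 92.0 ± 1.4 in control libraries, and Srsf3 with 76.5 ± 0.71 in cKO and 79.9 ± 8.5 in control libraries. From Srsf4, with 30.1 in cKO and 26.9 in control libraries, the order of the cKO means ran on through Srsf11, Tra2a, Srsf7, Tra2b and Srsf1, while in control libraries the mean of Srsf7 lay above that of Tra2a. Srsf6 came last with 11.1 ± 1.3 in cKO and 14.0 ± 1.8 in control libraries. In control libraries each neighbour in this order from Srsf4 to Srsf1 overlapped the next, while Srsf3 lay below Srsf2 and Srsf6 below Srsf1 in every library.

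**Figure D1:**
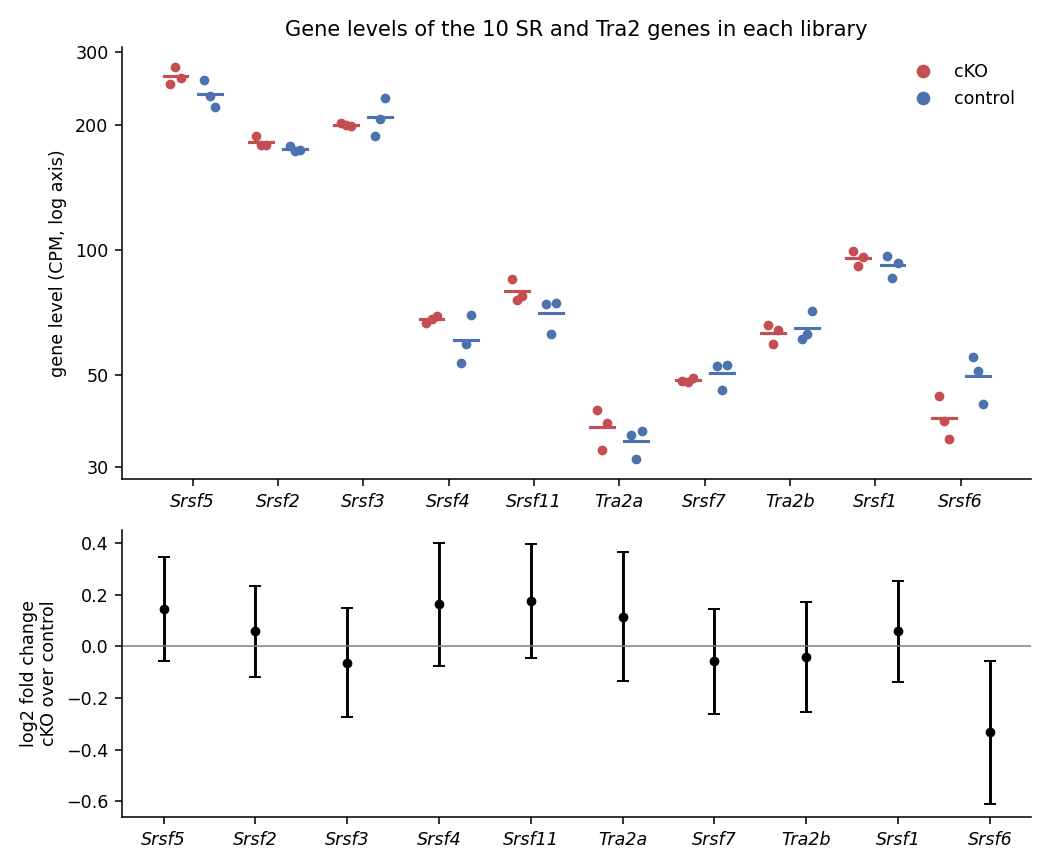
Gene level of each member in CPM on a log axis (top; points are libraries, bars are means of 3) and log2 fold change of cKO over control with its 95% confidence interval (bottom), ordered by level per kilobase. The groups overlap for every member but Srsf2 and Srsf11, and Srsf6 has the lowest fold change, -0.33.

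Mean inclusion of the 18 exons in the sequenced RNA was low in either genotype, and none of the 18 was called. The 630 bp form of Srsf11 was highest, at 21.2% in cKO and 27.3% in control. Its percentage was taken against the junction into the 117 bp exon, not against the coding junction, so it is not comparable with the other Srsf11 forms. The means of the others reached at most 14.2% in cKO and 6.37% in control. Inclusion is the mean of the reads on the exon's upstream and downstream junctions over that mean plus the reads that skip it, and a call needed an edgeR adjusted p under 0.05 and a change of at least 5 percentage points. Of the 6657 exons under 50% in control in the whole series, 5.30% were called higher and 0.315% lower in cKO, 5.62% in all, and limma on log odds called 7.42%. Of the 18 member exons, 0 were called in either direction by edgeR or by limma on log odds, and 4 had an unadjusted p under 0.05, where 25.8% of all such exons had. Mean inclusion was higher in cKO for 15 and lower for 3, and 70.3% of all such exons had a higher mean in cKO. The groups did not overlap, with cKO higher, for 6 of the 18, where this held for 30.4% of all such exons. The median change was 1.78 points over the member exons and 2.09 points over all such exons.

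Srsf11 had the largest shifts, at a pair of alternative exons in the same intron. The 117 bp exon was included at 15.9%, 13.5% and 13.1% in cKO and at 3.99%, 7.99% and 7.02% in control libraries. Every cKO library was above every control library, and the change was 7.85 points with an edgeR adjusted p of 0.124. The 109 bp exon was included at 2.08%, 2.32% and 2.78% in cKO and at 0.425%, 0.104% and 0% in control libraries. Its edgeR adjusted p was 0.057, and its change of 2.21 points was under the size a call needed. These values use only the junctions that join this exon to the coding donor and the coding acceptor. Another annotated junction into its acceptor had 26, 31 and 48 reads in cKO and 26, 10 and 8 in control libraries, so the exon was spliced in every control library. A form of 989 bp pairs the upstream junction of the 109 bp exon with the downstream junction of the 117 bp exon. It is not annotated, has no junction of its own and takes all its reads from those exons. An annotated junction between the 109 bp and 117 bp exons had 20, 15 and 8 reads in cKO and 5, 0 and 3 in control. The computed inclusion of the 989 bp form was 10.8%, 10.7% and 8.74% in cKO and 2.70%, 5.25% and 4.05% in control libraries (edgeR adjusted p = 0.093). With only exons of 5% to 95% pooled inclusion tested, both the 117 bp and the 989 bp form were called, at edgeR adjusted p = 0.035 and 0.022. Neither the 639 bp nor the 630 bp form of this gene is annotated. Both enclose the other annotated junction into the acceptor of the 109 bp exon, so their reads need not come from single exons. The 639 bp form was included at 2.70%, 4.31% and 4.11% in cKO and 2.90%, 1.24% and 1.33% in control libraries. The 630 bp form, set against the junction into the 117 bp exon, rested on as few as 26.5 reads in a library. It ranged from 10.5% to 33.3% in cKO and from 16.9% to 47.2% in control libraries.

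At the donor of the coding junction of Srsf11, the share of reads that went to any other acceptor was 23.1%, 18.9% and 22.1% in cKO and 10.7%, 8.60% and 9.59% in control libraries. At the acceptor it was 19.1%, 18.5% and 14.6% in cKO and 5.63%, 10.2% and 7.79% in control libraries. Neither pair of groups overlapped. The coding junction itself stayed at 7.57, 5.45 and 7.09 RPM, reads scaled to a total of 1e6 junction reads, in cKO and 6.31, 6.12 and 7.53 RPM in control libraries, which overlap. These shares of all reads at a splice site were added after the data were seen and have no test of their own.

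The Srsf2 exon lies behind the normal stop codon, on chromosome 11 from 116851648 to 116851751, so it leaves the protein as it is. In the transcript used for the frame, the last exon junction lay 7 bp after the stop without the exon and 111 bp after it with the exon. The exon was included at 12.2%, 11.5% and 9.51% in cKO and at 6.12%, 7.30% and 5.70% in control libraries, on 1576.5 to 2250 reads per library. All cKO libraries were above all control libraries, with a change of 4.70 points, just under the size a call needed, and an edgeR adjusted p of 0.094. The donor share of other junctions was 9.72%, 9.49% and 9.19% in cKO and 5.13%, 6.30% and 4.91% in control libraries. The acceptor share was 14.5%, 13.5% and 9.83% in cKO and 7.09%, 8.28% and 6.47% in control libraries, and neither share overlapped between groups. The coding junction of Srsf2 had 19.6, 21.4 and 24.2 RPM in cKO and 19.9, 20.6 and 20.2 RPM in control libraries, which overlap.

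Tra2b, whose protein is known to promote inclusion of its own poison exon, had higher inclusion values for both forms in every cKO library. The 276 bp form was included at 7.24%, 6.51% and 8.07% in cKO and at 3.13%, 3.49% and 5.56% in control libraries (edgeR adjusted p = 0.337). The 397 bp form was included at 4.95%, 6.08% and 5.18% in cKO and at 2.00%, 2.56% and 4.80% in control libraries (edgeR adjusted p = 0.42). They share an acceptor and so share reads. The junction found only in the 397 bp form had 13, 9 and 0 reads in cKO and 0, 1 and 9 in control. The value of the 397 bp form in cKO replicate 3 thus came from the shared junction only. The donor share of other junctions was 9.90%, 10.7% and 11.4% in cKO and 3.92%, 4.70% and 7.03% in control libraries, groups that did not overlap. This share includes an unannotated junction that skips the poison exon, with 15, 6 and 6 reads in cKO and 0 reads in each control library. Without it the share was 6.23%, 9.12% and 9.85% in cKO and 3.92%, 4.70% and 7.03% in control libraries, which overlap.

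The 2 Tra2a exons overlapped between groups. The 312 bp exon was included at 2.91%, 7.84% and 5.03% in cKO and 5.79%, 4.93% and 0% in control libraries. The 81 bp exon, which keeps the normal stop codon, was included at 5.88%, 1.01% and 3.87% in cKO and 6.15%, 0.735% and 4.50% in control libraries. Both exons rested on 129.5 to 248.5 reads per library.

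The exons of Srsf3 and Srsf7 differed little between groups. The Srsf3 exon was included at 4.48%, 3.61% and 2.09% in cKO and 2.50%, 4.41% and 3.77% in control libraries, a change of -0.17 points (edgeR adjusted p = 0.92) on 2544.5 to 3896.5 reads per library. The 460 bp form in Srsf7 was included at 6.23%, 5.71% and 6.42% in cKO and 6.24%, 5.0% and 4.53% in control libraries. The 107 bp form in Srsf7 was included at 3.20%, 3.45% and 3.25% in cKO and 3.83%, 2.74% and 2.45% in control libraries. For all 3 exons the groups overlapped. The 36 bp exon of Srsf7, above 50% and with the same stop codon, was included at 89.4%, 85.8% and 85.4% in cKO and 89.8%, 82.0% and 87.2% in control libraries, which overlap too.

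The exons of Srsf5 and Srsf6 overlapped between groups as well. The 3 Srsf5 forms, which share an acceptor and part of their reads, had means of 1.72% to 1.90% in cKO and 1.13% to 1.23% in control libraries. The 268 bp exon of Srsf6 was included at 14.7%, 8.28% and 4.21% in cKO and 4.43%, 2.79% and 6.79% in control libraries, with cKO replicate 1 far above the rest (edgeR adjusted p = 0.51). The 165 bp form of Srsf6 was included at 6.73%, 1.82% and 1.62% in cKO and 1.29%, 0% and 2.25% in control libraries. The junction found only in this form had 9, 1 and 0 reads in cKO and 0 reads in each control library. Its values in control libraries and in cKO replicate 3 thus rest only on the upstream junction, shared with the 268 bp form. The coding junction of Srsf6 had 3.59, 2.94 and 3.25 RPM in cKO and 5.66, 4.47 and 3.54 RPM in control libraries, with an overlap of 1 library.

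**Figure D2:**
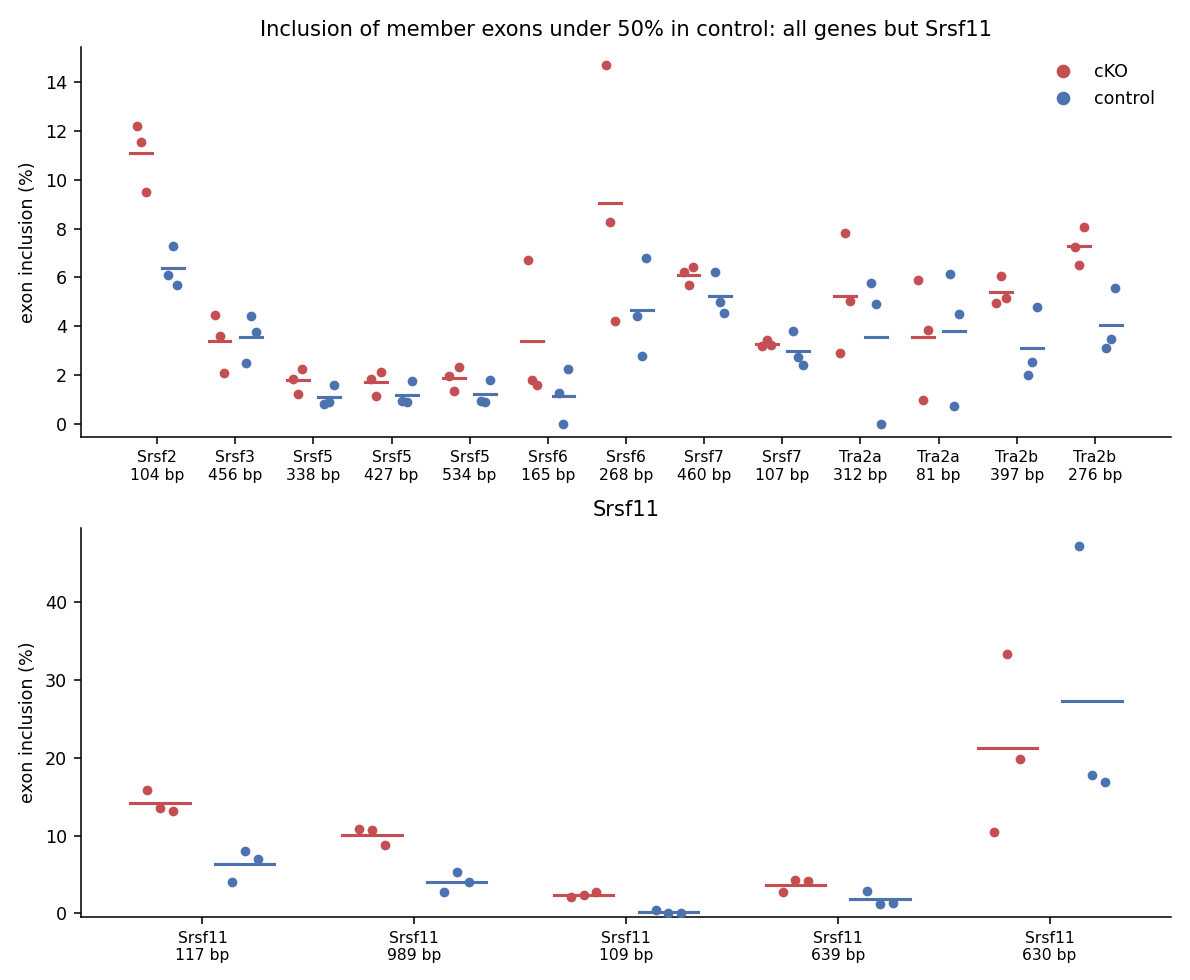
Inclusion in percent of the 18 member exons under 50% in control, by library, with cKO left of control in each pair and bars at the mean of 3 libraries; top, 7 genes, bottom, Srsf11. The cKO libraries lie above all control libraries for the Srsf2 exon, both Tra2b forms and the 117, 989 and 109 bp forms of Srsf11, and none was called.

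In Srsf1 the form annotated for decay skips a stretch of the last coding exon, rather than including an exon. Its reads start from the donor after base 88049215 of chromosome 11. The coding junction leads to base 88049412, where the coding transcript either runs on or leaves a 187 bp exon through a further junction to base 88049977. The skipping junction goes from the same donor straight to base 88049977, and in GENCODE it occurs in a transcript annotated for nonsense-mediated decay, whose stop codon starts at base 88050013.

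The skipping junction of Srsf1 had 189, 116 and 121 reads in cKO and 57, 31 and 15 reads in control libraries. The coding junction had 484, 464 and 517 reads in cKO and 425, 362 and 380 reads in control libraries. Both were higher in every cKO library, the skipping junction by more. At the donor, the skipping junction took 28.1%, 20% and 19.0% of reads in cKO and 11.8%, 7.89% and 3.80% in control libraries. At the acceptor shared with the 187 bp exon, it took 77.8%, 69.9% and 58.7% in cKO and 35.4%, 25.2% and 13.2% in control libraries, and the junction out of that exon fell to 40, 50 and 72 reads in cKO, against 97, 81 and 99 reads in control libraries.

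These Srsf1 differences did not pass the test. In the test of each junction against its cluster, the junctions that share a donor or an acceptor with it, the skipping junction changed by 14.0 points with an edgeR adjusted p of 0.054. It was called only without control replicate 1, with 15.7 points and an adjusted p of 0.031. The 187 bp exon, at a mean of 66.0% in cKO and 88.0% in control, changed by -22.0 points with an edgeR adjusted p of 0.120. It was called with only exons of 5% to 95% pooled inclusion tested, at 0.038. Counted on the lower of its inclusion junctions, it changed by -45.8 points (edgeR adjusted p = 0.153). Leaving out 1 library at a time, the adjusted p of the 187 bp exon ran from 0.116 to 0.300. A 203 bp form of this exon, which shares its acceptor and reads, changed by -21.8 points (edgeR adjusted p = 0.143) and was also called with only exons of 5% to 95% pooled inclusion tested (edgeR adjusted p = 0.048). Gene counts of Srsf1, as given above, overlapped between groups.

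Srsf4 moved the other way at 1 of its splice sites. Its coding junction, on chromosome 4 from 131873871 to 131891206, encloses a run of 3 inner exons that GENCODE places in transcripts for nonsense-mediated decay. The coding junction had 374, 430 and 498 reads in cKO and 252, 321 and 318 reads in control libraries, while the junction out of the last inner exon had 15, 23 and 23 reads in cKO and 41, 29 and 43 reads in control libraries. The share of the acceptor taken by that last inner exon was 3.86%, 5.08% and 4.41% in cKO and 13.99%, 8.29% and 11.9% in control libraries. The groups did not overlap. At the donor, the junction into the first inner exon had only 7, 3 and 9 reads in cKO and 0, 2 and 3 in control. Its share was 1.84%, 0.69% and 1.78% in cKO and 0%, 0.62% and 0.93% in control libraries. The junction from first to second inner exon had 21, 4 and 27 reads in cKO and 7, 1 and 10 in control. The junction out of the second inner exon had 13, 8 and 24 reads in cKO and 35, 15 and 41 in control. Both overlapped between groups, and the run did not shift as a unit. In every library more reads left the last inner exon than entered the first from the coding donor. Of 5 Srsf4 junctions tested, 0 were called by edgeR and 0 had an unadjusted p under 0.05, and the smallest adjusted p was 0.53.

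**Figure D3:**
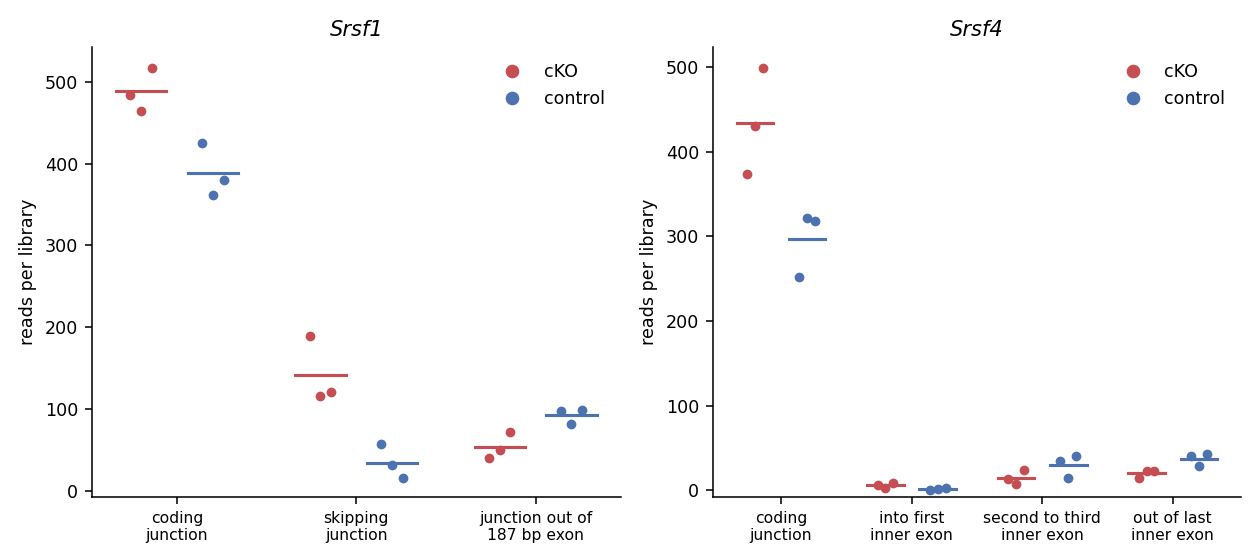
Reads per library on the named junctions of Srsf1 (left) and Srsf4 (right), with cKO left of control and bars at the mean of 3 libraries. The skipping junction of Srsf1 had 116 to 189 reads in cKO and 15 to 57 in control, and the last inner exon of Srsf4 had 15 to 23 in cKO and 29 to 43 in control.

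Over the 10 coding junctions, 1 per member, the donor share of other junctions had a higher mean in cKO in 9, all but Srsf3, and the groups did not overlap, with cKO higher, in 4, Srsf1, Srsf2, Srsf11 and Tra2b. Over the series, the most-read annotated junction of each donor with other junctions and at least 20 reads in every library gave 26853 such sites, of which 66.6% had a higher mean in cKO and 18.6% did not overlap with cKO higher. Without unannotated junctions the groups did not overlap in Srsf1, Srsf2 and Srsf11, and those of Tra2b did. The junctions of Srsf1 and Srsf4 were added after their values were seen, so the counts of members given here are descriptive only. The RPM level of the coding junction was higher in every cKO library than in every control library for Srsf1, Srsf4, Srsf5 and Tra2a, where 15.1% of these 26853 junctions were; it stood at 6.15 ± 0.17 in cKO and 5.17 ± 0.54 in control for Srsf1 and at 5.47 ± 0.74 in cKO and 3.94 ± 0.48 in control for Srsf4. For Srsf5 it was 76.8 ± 3.1 in cKO and 65.4 ± 3.6 in control, and for Tra2a 2.43 ± 0.41 in cKO and 1.75 ± 0.12 in control (SD, n = 3 each). The gene counts of Srsf1, Srsf4, Srsf5 and Tra2a overlapped between groups.

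**Figure D4:**
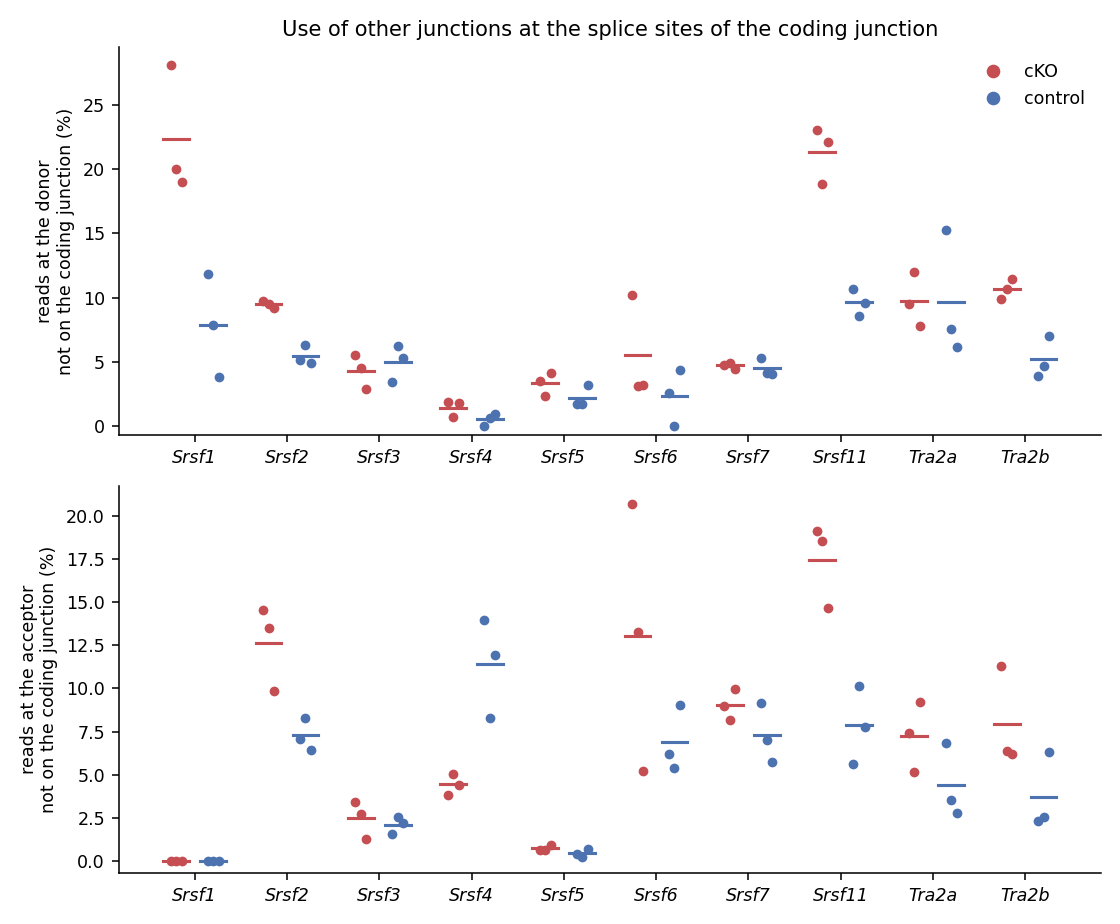
Share of reads, in percent, at the donor (top) and the acceptor (bottom) of each member's coding junction that lie on another junction, by library, with cKO left of control and bars at the mean of 3. At the donor the cKO libraries lie above all control libraries for Srsf1, Srsf2, Srsf11 and, only with its unannotated junction counted, Tra2b; at the acceptor they lie above for Srsf2 and Srsf11 and below for Srsf4.

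Across all junctions of the members, 87 were tested and edgeR called 0, where 0.751% of the 112047 junctions tested in the series were called, 738 with a higher share (0.659%) and 104 with a lower share (0.0928%). At an unadjusted p under 0.05 there were 10 of the 87, where 13.5% of all junctions were. These 10 lay in Srsf11 with 4, in Srsf1 and Tra2b with 2 each, and in Srsf2 and Srsf6 with 1 each. The smallest adjusted p after Srsf1 was 0.082, for an unannotated Srsf11 junction with 39, 0 and 3 reads in cKO and 0 reads in each control library, so it rested on cKO replicate 1. An unannotated Srsf2 junction of 82 reads was present in cKO replicate 3 and in no other library.

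Other genes around the SR proteins were described from lists of their relatives and regulators. None of the 3 other classical SR genes, among them Srsf10 and Srsf12 at log2 fold changes of 0.05 ± 0.09 and 0.28 ± 0.14 (SE), passed the edgeR test, and 0 were at an unadjusted p under 0.05. None of the 10 kinases that phosphorylate SR proteins and their importer did, with 0 at an unadjusted p under 0.05, and Srpk2, an SR protein kinase, was at -0.01 ± 0.09 (SE). None of 16 genes that encode decay factors or exon junction proteins was called by edgeR, with 1 at an unadjusted p under 0.05 and 1 called by DESeq2. Dyrk1a, which also phosphorylates splicing factors, was at -0.12 ± 0.09, and Smg1, the kinase that starts decay, at 0.03 ± 0.08 (SE).

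Calls were found among SR-related genes, which carry arginine and serine repeats without being classical SR proteins. Of 21, 3 rose and 1 fell. Rsrc2 had 140.5, 139.2 and 142.3 CPM in cKO and 89.1, 83.0 and 88.0 CPM in control libraries, with a log2 fold change of 0.70 ± 0.08 (SE, edgeR adjusted p = 0.00093), and kept its call with any library left out. Pnn, an exon junction protein, rose by 0.52 ± 0.12, Son, a speckle scaffold, by 0.37 ± 0.10, and Rsrc1 fell by 0.51 ± 0.10 on the log2 scale (SE, edgeR adjusted p = 0.028, 0.046 and 0.016). Among the other splicing factors with poison exons, Rbm39, an RNA-binding protein, fell by 0.37 ± 0.08 on the log2 scale (SE, edgeR adjusted p = 0.024). Without 1 library, Son and Rbm39 each lost the call in 5 of 6 cases, Pnn in 4 and Rsrc1 in 3, with the same direction throughout and edgeR adjusted p from 0.051 to 0.238. Each library but control replicate 1 ended at least 1 of these calls when it was left out. Son also lost it with RLE scaling, at an adjusted p of 0.061.

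Some low-inclusion exons of these lists did pass the test. Of 80 such exons in 33 genes, 16 were called higher in cKO and 0 lower, in 5 genes. Of all exons under 50% in control, 5.30% were called higher and 0.315% lower. With limma on log odds 16 of the 80 were called, where 7.42% of all such exons were. Of the 16 that edgeR called, 14 were among the 39 exons of SR-related genes, in Arglu1, Rsrc2, Rsrp1 and Srrm1. The other 2 were among the 29 of other splicing factors, both in Rbm39. Rsrc2 alone held 8 of the 16 and Srrm1 held 3. None of the 10 exons in genes of the kinases and importer or of the 2 in other classical SR genes was called. As in the member genes, several exons share a gene and reads, and the difference between the lists was not tested. Since 5.62% of all exons under 50% in control were called, the 0 calls among the 18 member exons do not set the members apart.

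The Rsrc2 values show the size that these exons reached. Its 78 bp exon, on chromosome 5 from 123742779 to 123742856, was included at 56.6%, 56.3% and 57.1% in cKO and at 14.4%, 19.2% and 12.6% in control libraries (edgeR adjusted p = 0.0032). Its 93 bp exon had 76.7%, 74.9% and 73.7% in cKO and 30.6%, 32.5% and 28.6% in control libraries, and its 99 bp exon 38.7%, 33.6% and 33.2% in cKO and 1.43%, 2.86% and 0.76% in control libraries (edgeR adjusted p = 0.0033 and 0.0066). The 75 bp and 115 bp exons of Rsrc2 rose by 11.1 and 15.2 points. The 130 bp exon of Srrm1, a splicing coactivator, had 24.6%, 18.9% and 23.0% in cKO and 2.23%, 2.22% and 4.07% in control libraries (edgeR adjusted p = 0.013). Among the member exons under 50%, the largest changes were the 7.85 points of the 117 bp exon in Srsf11 and, outside Srsf11, the 4.70 points of Srsf2. With the lower of the inclusion junctions, the 93, 99 and 75 bp exons of Rsrc2 lost the call, at edgeR adjusted p = 0.113, 0.081 and 0.058. Without cKO replicate 1, 2 or 3 the 16 calls in these lists became 3, 4 and 3, and the 115 bp and 75 bp Rsrc2 exons and the Srrm1 exon were among those lost in at least 1 case, at adjusted p from 0.050 to 0.070.

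**Figure D5:**
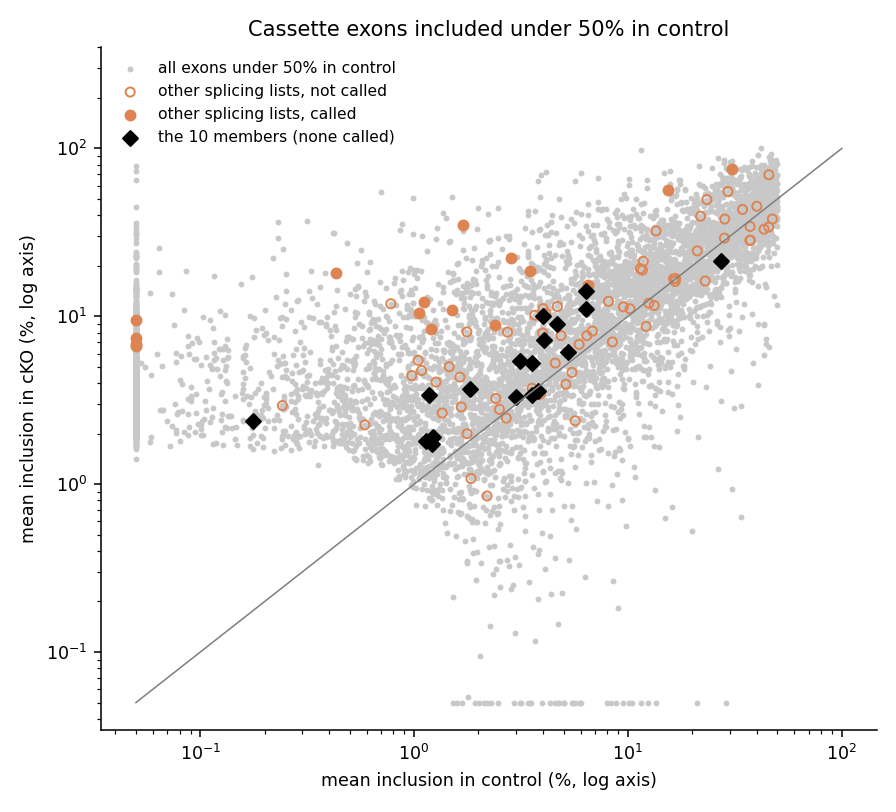
Mean inclusion in cKO (vertical) against control (horizontal), in percent on log axes, for the 6657 cassette exons under 50% in control, with values under 0.05% drawn at 0.05%; the line marks equal inclusion. The 18 member exons (diamonds) lie among the other exons and none was called. Of the other splicing lists, 16 exons (filled circles) were called, all above the line.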

How the data were processed

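Counts were deposited by the authors without normalization, reads per gene in a single table and reads per splice junction in a list for each library. TopHat2 2.1.0, HTSeq 0.6.0 and mm10 were used, per the submitters' processing notes; how strand and multiple alignments were handled is not stated by any source used. Amplified reads are not independent molecules. The SEs and tests draw on the variation between the libraries of each group. The gene test was edgeR's quasi-likelihood test (version 4.0.16, R 4.3.3) after filterByExpr and TMM scaling, with Benjamini-Hochberg adjustment over all genes; levels are CPM. Cassette exons (at most 1000 bp, each junction at least 10 reads, at least 20 reads in every library, pooled inclusion 1% to 99%) were tested on inclusion and skipping reads with library as a block. Junctions were tested with diffSpliceDGE. Frames and sequences came from GENCODE M21 transcripts. The tests were tested on simulated data. Alternatives included limma 3.58.1 and DESeq2 1.42.0. Named were all members with their tested exons, up to 4 called genes of each splicing or decay list (or the 2 most abundant), and the 6 exons of those lists with the smallest p; cell type markers are given as counts, and other features were chosen after their values were seen. Some genes that this rule names are not reported here. Members and lists were chosen with earlier results of these data known.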

Additional observations from a re-analysis of the deposited data

How the results depend on the processing

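No alternative to scaling, filter or test changed the direction of a member's gene level, and none of them called one. Other counts moved by more than 1.5 times. DESeq2 called 2090 genes, against 1265 with edgeR. Against 643 cassette exons, 1129 were called with pooled inclusion of 5% to 95%, 1030 with no minimum change, 416 with at least 10 points and 211 with the lower of the inclusion junctions; 2 member exons under 50% were called in the first of these, and 0 in the others. The exons of other splicing lists went to 7 with 10 points and 3 with the lower junction, against 16. With no minimum change 2539 junctions were called, against 842. With the lower junction the Srsf3 exon changed by 0.36 points and the 81 bp Tra2a exon by 0.79 points, which turned both directions. The cause was not tested.

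With 1 library left out, calls ranged from 530 to 1037 genes, 119 to 399 exons, 3 to 11 exons of the other splicing lists and 563 to 772 junctions, all with fewer samples, and from 0 to 1 member junctions. Directions turned within -0.0067 to 0.096 for Srsf1, -0.086 to 0.0098 for Tra2b, -0.0058 to 0.095 for Srsf10 and -0.063 to 0.047 for Srpk2 on the log2 scale. In points they turned within -0.71 to 0.48 for the Srsf3 exon, -1.74 to 1.08 for the 81 bp and -0.10 to 2.86 for the 312 bp Tra2a exon, -1.64 to 2.24 for the 36 bp Srsf7 exon and -11.3 to 3.89 for the 630 bp Srsf11 exon.

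The replicate numbers of the labels did not pair the libraries: deviations of same-numbered libraries correlated at -0.06 to 0.04 and 1 of 3 control libraries matched its own number best. With the replicate number as a block, 1734 genes, 82 exons, 2 exons of the other splicing lists and 777 junctions were called, and 1 member gene, Srsf6, at an edgeR adjusted p of 0.036.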
